A study of Homo sapiens with 6 samples.

Results

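The plasminogen activators, their receptor and their serpins were followed in human lung epithelial cells treated with TGF-β1. The set was chosen by name and comprised 5 genes, namely PLAU, PLAT, PLAUR, SERPINE2 and SERPINB2, each with 1 entry among the 25737 entries counted in every library. PLAU (urokinase) and PLAT (tissue plasminogen activator) are secreted proteases that cut plasminogen into plasmin, which degrades fibrin and other matrix proteins. PLAUR is the GPI-anchored receptor that holds urokinase at the cell surface. SERPINE2 (protease nexin-1) is a secreted serpin that blocks thrombin, urokinase and tissue plasminogen activator, and SERPINB2 is a largely intracellular serpin that can inhibit urokinase. The set does not hold every serpin that acts on these proteases, so each balance given here is one among these 5 genes.

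A549 cells, a wild-type lung carcinoma line, and BEAS-2B cells, an immortalized bronchial epithelial line, were left untreated (0 ng/mL) or were exposed for 48 h to TGF-β1 at 1 or 5 ng/mL. Both lines were grown in RPMI medium with fetal bovine serum, and TGF-β1 was given in the same medium with less serum. Which of these the untreated cells had during the 48 h is not given in the sources used here, so a difference in medium cannot be told apart from an effect of TGF-β1. Each of the 6 conditions had 1 library, so no replicate error exists, no test between conditions was run, and every interval below is an exact 95% interval that covers counting error only. Both doses of a cell line were compared with the same control library.

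Total counts ranged from 4120624 to 7841350 per library. Counts were scaled to a common library size, and the normalized data (ND) value was log2 of the scaled count plus 1. A gene was taken as higher or lower when its fold change (FC) reached 2 and the larger of both ND values reached 7, which corresponds to a scaled count of 127. The epithelial markers differed in how they separated the lines. EPCAM had 49, 7 and 2 counts in A549 cells over 0, 1 and 5 ng/mL and 0 in all BEAS-2B libraries. CDH1 had 640, 30 and 8 counts against 2, 0 and 2. Both markers were thus absent or nearly so from the line labelled bronchial epithelial. Keratins were counted there: untreated BEAS-2B cells held 1418 counts of KRT18, 372 of KRT8 and 46 of KRT19. Untreated A549 cells held 14592, 6112 and 41. The summed scaled count of the 5 epithelial markers lay between 10461 and 24834 in A549 cells and between 1042 and 2050 in BEAS-2B cells, highest in each control. Its part in the results below was not tested. Of 14 markers of other cell types, VWF, CDH5, CD3E, SFTPA1, SFTPC and KRT14 had 0 counts in every library and 6 others had at most 8. The exceptions were ABCA3, a lipid transporter of alveolar type 2 cells, with 72, 255 and 194 counts in A549 and 23, 5 and 3 in BEAS-2B cells, and CD68, with 51, 73 and 52, and 24, 14 and 4. Of a 6-gene TGF-β response list, 5 genes reached the minimum in each line. The gene left out was SMAD7 in A549 cells and BHLHE40 in BEAS-2B cells, so the 5 differ between the lines. Of these, 1 was higher in A549 cells at 1 ng/mL, 4 at 5 ng/mL and 5 in BEAS-2B cells at either dose, and none was lower. Over all entries that reached the minimum, 10.9% and 16.1% were higher and 12.6% and 17.1% lower in A549 cells at 1 and 5 ng/mL. The BEAS-2B shares were 5.66% and 7.33% higher and 9.13% and 11.6% lower. PMEPA1, a feedback regulator of TGF-β signaling, had an FC of 5.01 in A549 and 21.8 in BEAS-2B cells at 5 ng/mL.

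The promoters of the set differed in the short motifs they carried. RefSeq starts on GRCh38.p14 were found for 4 of the 5 genes, with 6 windows in all, and the 250 bases upstream of each start were searched on both strands for 4 motifs, and no matches of different motifs overlapped in these windows. The AP-1 motif, written TGANTCA, was held by 6.57% of all 35116 RefSeq promoters. The SMAD motif was the 5-letter CAGAC box, which 38.0% of these promoters held. The CCAAT motif, searched by the letters of its name, was held by 32.0%. The TATA motif was searched with the 6 letters TATAAA and was held by 10.7%. SERPINE2 held 7 CCAAT matches upstream of 1 of its 2 starts and 0 upstream of the other. At least 7 matches were held by 7 of the 35116 promoters (0.0199%). The boxes alternated in orientation, and 6 of the 7 formed 2 series of 3, each spaced 77 bases apart. The seventh, 250 bases upstream at the edge of the window, lay outside this spacing and is not shown. The sequences below are shown to make that repeat visible, 5′ to 3′ on the minus strand, with the matched letters or their reverse complement in capitals.
SERPINE2, 215 bases upstream, chr2:224031676-224031705: ctgttcgctgtaCCAATggctgtgggcaga
SERPINE2, 138 bases upstream, chr2:224031599-224031628: ctcgtcccgataCCAATggctgtgggcaga
SERPINE2, 61 bases upstream, chr2:224031522-224031551: cccttccgtgtaCCAATggctgtgggcgga
SERPINE2, 181 bases upstream, chr2:224031642-224031671: tgaggtcctatgATTGGctgatgctaagtc
SERPINE2, 104 bases upstream, chr2:224031565-224031594: tgaggtcctgtgATTGGctgatgctaggtc
SERPINE2, 27 bases upstream, chr2:224031488-224031517: ggaggttctatgATTGGctgaatcccaaat

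The windows around the forward boxes at 215 and 138 bases shared 25 of 30 bases, and the copy at 61 bases shared 25 and 24 with them. The reverse boxes at 181 and 104 bases shared 28, while the copy at 27 bases shared only 21 and 19 with them. No AP-1 motif or SMAD box was found upstream of either SERPINE2 start. PLAU, PLAUR and SERPINB2 are shown next for contrast, because their windows held 1 match of a motif at most. The capitals mark the SMAD box for PLAU, the AP-1 motif for PLAUR, and the TATA box and AP-1 motif for SERPINB2, each on the strand of the gene. Matches not shown were a SMAD box 51 bases upstream of PLAUR and 9 bases upstream of SERPINB2, and a CCAAT box 182 bases upstream of the other PLAU start.
PLAU, plus strand, 180 bases upstream, chr10:73910940-73910969: gattcctcagtcCAGACgctgttgggtccc
PLAUR, minus strand, 186 bases upstream, chr19:43670337-43670366: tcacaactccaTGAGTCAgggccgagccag
SERPINB2, plus strand, 30 bases upstream, chr18:63887663-63887692: ggggcaaagctgTATAAAaccagtcattac
SERPINB2, plus strand, 102 bases upstream, chr18:63887592-63887621: gagtaaaatgtTGAATCActcaaaggacac

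These matches are letters within a window, and neither binding of any factor nor the start in use was measured in this series.

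SERPINE2 and PLAU moved apart in both cell lines. The protease PLAU fell 15.0-fold in A549 and 13.3-fold in BEAS-2B cells at 5 ng/mL while the inhibitor rose 10.2-fold and 4.32-fold, and the same directions were seen at 1 ng/mL. The receptor PLAUR moved less and not alike in the lines, PLAT had more counts in treated A549 cells at low depth, and SERPINB2 was all but undetected. In A549 cells, 1 of the 5 genes (SERPINE2) was higher and 1 (PLAU) was lower at each dose. Over all entries that reached the minimum, 10.9% were higher and 12.6% lower at 1 ng/mL, and 16.1% were higher and 17.1% lower at 5 ng/mL. In BEAS-2B cells at 1 ng/mL, SERPINE2 was again the 1 higher gene and PLAU the 1 lower gene, against 5.66% and 9.13% of all entries. At 5 ng/mL, SERPINE2 was higher and both PLAU and PLAUR were lower, against 7.33% and 11.6% of all entries. PLAT and SERPINB2 reached the minimum in no library. In such bulk libraries, fewer cells that express a gene and less RNA per cell cannot be told apart.

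**Figure D1:**
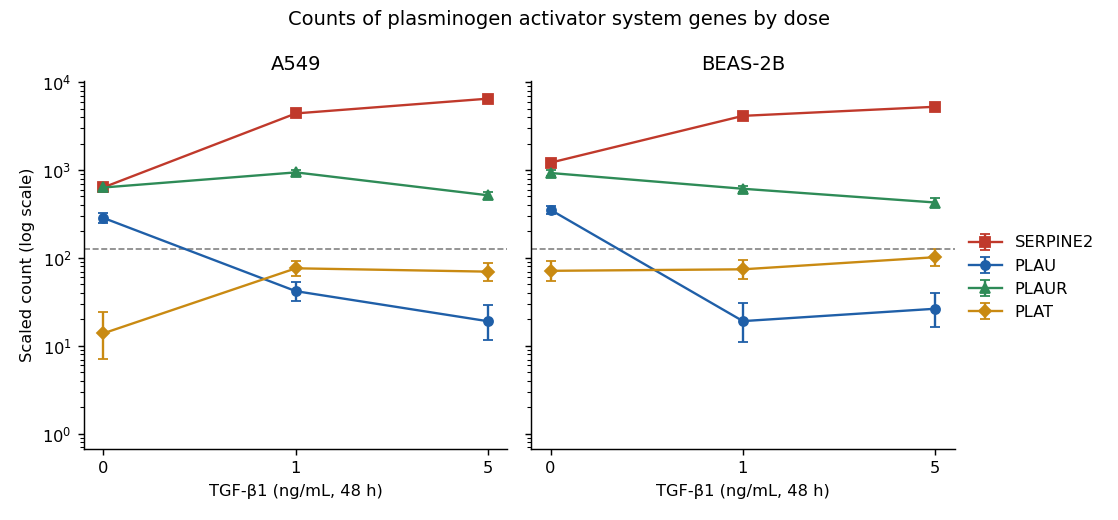
Scaled counts of 4 genes (log axis) against TGF-β1 dose in A549 (left) and BEAS-2B (right) cells, 1 library per point, with bars for the exact 95% Poisson interval and a dashed line at the minimum of 127. At 5 ng/mL SERPINE2 stood at 6481 and 5239 scaled counts and PLAU at 19.1 and 26.5. SERPINB2 is not drawn because it had 0 or 1 count.

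PLAU, the urokinase gene, spans 73909177 to 73917497 on the plus strand of chromosome 10 (GRCh38). In A549 cells, its scaled count was 285 at 0 ng/mL, 41.9 at 1 ng/mL and 19.1 at 5 ng/mL, from 246, 61 and 21 reads. The BEAS-2B libraries had 352, 19.1 and 26.5, from 316, 17 and 21 reads. The control was the highest library in each line, and its interval did not overlap those of the treated libraries. PLAU was 6.80-fold lower (interval 5.12 to 9.16) at 1 ng/mL and 15.0-fold lower (9.57 to 24.6) at 5 ng/mL in A549 cells. The BEAS-2B falls were 18.4-fold (11.3 to 32.0) and 13.3-fold (8.57 to 21.8). Ranked by FC among all entries that reached the minimum, PLAU in BEAS-2B cells was 7th from the bottom of 6681 at the lower dose and 21st of 6735 at the higher. In A549 cells it was 109th of 7007 and 81st of 7115. The call rested on the control library, since PLAU lay below the minimum in every treated library, and in all 4 comparisons it was lost when the minimum was asked of both libraries or read from log2(CPM + 1), where the controls had 59.4 (A549) and 74.3 (BEAS-2B) CPM.

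Between the doses, PLAU differed beyond counting error in A549 cells and not in BEAS-2B cells, and the difference of these steps was not tested. In A549 cells, the scaled count at 5 ng/mL was 2.20-fold below that at 1 ng/mL, with an interval of 1.32 to 3.80. In BEAS-2B cells, the scaled count at 5 ng/mL was 1.38 times that at 1 ng/mL, and the interval of 0.695 to 2.79 included no change. The A549 fold was 2.71 times the BEAS-2B fold at 1 ng/mL (1.51 to 5.07), that is, the fall was smaller in A549 cells. At 5 ng/mL the folds were not distinguishable at this depth, with a ratio of 0.891 (0.451 to 1.76).

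C10orf55 lies on the opposite strand of chromosome 10 from 73909969 to 73922777 and overlaps PLAU by 7529 bases, including 31.1% of the exonic bases of PLAU. Its own counts were 2, 9 and 24 in A549 cells and 0, 8 and 6 in BEAS-2B cells over 0, 1 and 5 ng/mL, so it was lowest in the controls, where PLAU was highest. Whether the deposited counts used the strand is not given in the sources used here, and an effect of the overlap on the PLAU count was not tested. The fall of PLAU also stood beside spread among the reference genes: of the 7 that reached the minimum, log2 folds at 5 ng/mL lay between -1.14 (HPRT1) and 1.39 (ACTB) in A549 cells and between -2.00 (HPRT1) and 0.75 (GAPDH) in BEAS-2B cells, and their part in the result was not tested.

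PLAT, the tissue plasminogen activator gene, spans 42175233 to 42207724 on the minus strand of chromosome 8. In A549 cells, its count was 12 at 0 ng/mL, 111 at 1 ng/mL and 77 at 5 ng/mL, or 13.9, 76.3 and 69.9 after scaling. In BEAS-2B cells, its count was 64, 66 and 81, or 71.4, 74.3 and 102. The A549 control was the low library of the 6, and the other 5 lay between 69.9 and 102. The treated A549 libraries were 5.49 times (3.02 to 10.9) and 5.02 times (2.72 to 10.1) the control at 1 and 5 ng/mL, values beyond counting error but below the minimum. BEAS-2B libraries were 1.04 times (0.726 to 1.49) and 1.43 times (1.02 to 2.02) their control. The A549 ratio was 5.27 times the BEAS-2B ratio at 1 ng/mL (2.56 to 11.5) and 3.52 times at 5 ng/mL (1.70 to 7.68).

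PLAU and PLAT thus changed places as the more counted activator. Of the PLAU and PLAT counts together, PLAU made up 95.3% (92.0 to 97.6) in untreated A549 cells, 35.5% (28.3 to 43.1) at 1 ng/mL and 21.4% (13.8 to 30.9) at 5 ng/mL. In BEAS-2B cells the share was 83.2% (79.0 to 86.8), 20.5% (12.4 to 30.8) and 20.6% (13.2 to 29.7). The sum of both activators came in scaled counts to 299, 118 and 88.9 in A549 cells and to 424, 93.4 and 128 in BEAS-2B cells. Reads of a 3′-tag library differ between genes in how well they are captured, so these shares are compared between libraries and do not give molar shares.

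PLAUR, the urokinase receptor gene, spans 43646095 to 43670547 on the minus strand of chromosome 19. In A549 cells, its scaled count was 633 at 0 ng/mL, 940 at 1 ng/mL and 515 at 5 ng/mL. The BEAS-2B values were 925, 612 and 427. Dose order therefore held in BEAS-2B cells only, where each library lay below the one before it beyond counting error, whereas the middle dose was the highest in A549 cells. Against control, PLAUR was 1.49 times (1.34 to 1.64) at 1 ng/mL and 0.815 times (0.723 to 0.918) at 5 ng/mL in A549 cells, neither of which reached an FC of 2. BEAS-2B cells showed PLAUR 1.51-fold lower (1.35 to 1.69) at 1 ng/mL and 2.17-fold lower (1.91 to 2.46) at 5 ng/mL, and only the latter met the criteria. The A549 fold was 2.24 times the BEAS-2B fold at 1 ng/mL (1.93 to 2.61) and 1.76 times at 5 ng/mL (1.48 to 2.10).

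SERPINE2, the protease nexin-1 gene, spans 223975112 to 224039319 on the minus strand of chromosome 2. In A549 cells, its scaled count was 635 at 0 ng/mL, 4401 at 1 ng/mL and 6481 at 5 ng/mL. The BEAS-2B values were 1212, 4128 and 5239. Every treated library lay above its control, and the control was lower in A549 cells. The gene rose 6.93-fold (6.35 to 7.58) at 1 ng/mL and 10.2-fold (9.36 to 11.2) at 5 ng/mL in A549 cells, and 3.41-fold (3.18 to 3.65) and 4.32-fold (4.04 to 4.62) in BEAS-2B cells. By FC it ranked 47th from the top of 7007 and 62nd of 7115 in A549 cells, and 129th of 6681 and 108th of 6735 in BEAS-2B cells. Among all entries of its library, SERPINE2 moved between 0 and 5 ng/mL from the 94.2 to the 99.6 percentile of counts (A549) and from the 97.2 to the 99.6 percentile (BEAS-2B).

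SERPINE2 was higher at the larger dose in both lines. The step from 1 to 5 ng/mL was 1.47-fold (1.42 to 1.52) in A549 cells and 1.27-fold (1.21 to 1.33) in BEAS-2B cells, both beyond counting error and below an FC of 2. The A549 fold was 2.04 times the BEAS-2B fold at 1 ng/mL (1.82 to 2.28) and 2.36 times at 5 ng/mL (2.11 to 2.64).

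SERPINB2 spans 63871692 to 63903890 on the plus strand of chromosome 18, and its 3′ part overlaps SERPINB10 on the same strand, which had 0 counts in every library. The gene had 0, 1 and 0 counts in A549 cells and 0 counts in each BEAS-2B library. As a one-sided limit, apart from the intervals used elsewhere, a count of 0 allows up to 3 counts, or a scaled count of 2.72 to 3.78 in the libraries at 0. No fold or balance was formed with SERPINB2, since both sides of each comparison were at or under that limit. Of the pair of inhibitors in the set, SERPINE2 was therefore the one that was measured.

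**Figure D2:**
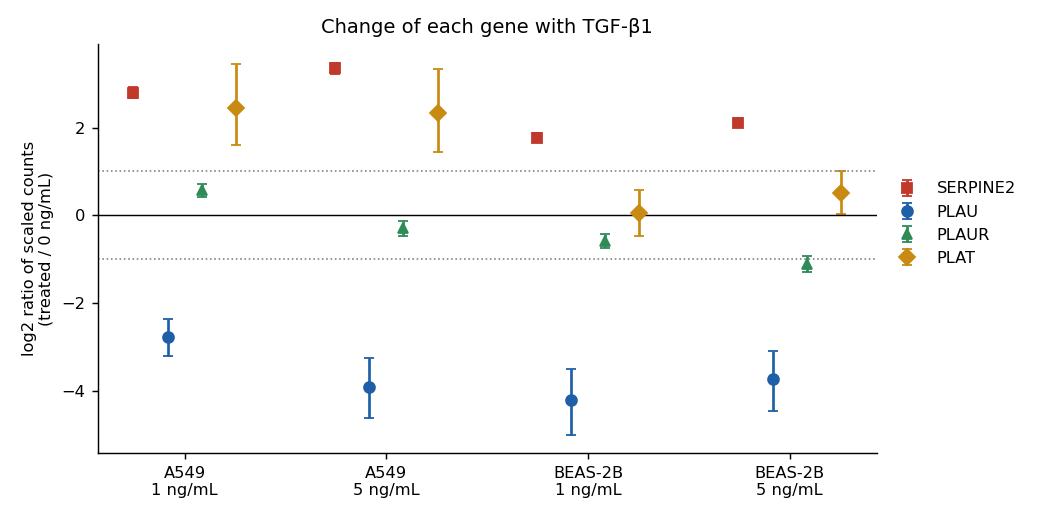
Log2 ratio of scaled counts, treated over untreated, for 4 genes in the 4 comparisons, with exact 95% intervals for counting error. Dotted lines mark an FC of 2. SERPINE2 lies above and PLAU below the dotted lines in all 4 comparisons, PLAUR crosses 0 between lines and doses, and PLAT is high in A549 cells with wide intervals.

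Within all measured entries, SERPINE2 and PLAU lay in the tails of the distribution and PLAUR closer to its middle, down to the 660th from the bottom of 6735 in BEAS-2B cells at 5 ng/mL. The median log2 fold of entries that reached the minimum was 0.09 and 0.11 in A549 cells and 0.01 and 0.03 in BEAS-2B cells at 1 and 5 ng/mL. Against these medians, the log2 fold of PLAUR was 0.57 and -0.30 in A549 cells and -0.59 and -1.11 in BEAS-2B cells. The log2 fold of SERPINE2 was 2.79 and 3.35 in A549 cells and 1.77 and 2.11 in BEAS-2B cells, and that of PLAU was -2.74 and -3.83, and -4.13 and -3.69.

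**Figure D3:**
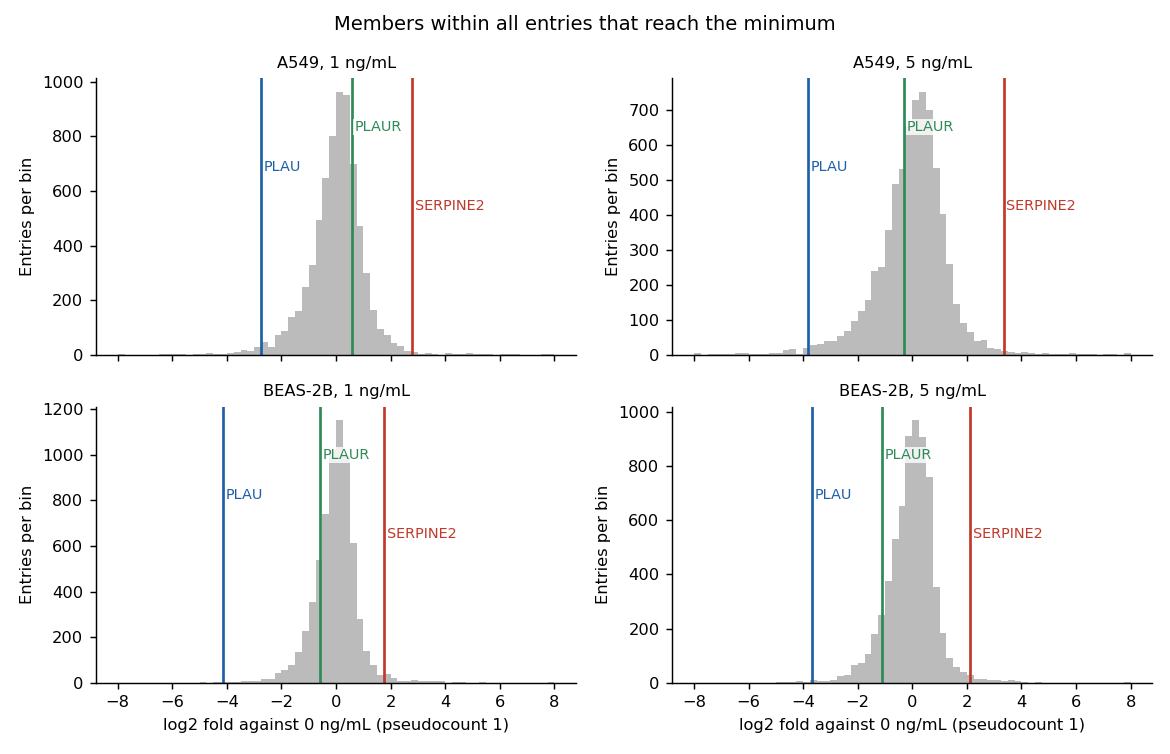
Histograms of the log2 fold against 0 ng/mL (horizontal axis) of all entries that reached the minimum, in bins of 0.25, with vertical lines at the values of 3 genes. PLAU sits in the left tail and SERPINE2 in the right tail of each of the 4 comparisons. Values beyond 8 in either direction are drawn in the end bins.

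Since ratios of counts within a library need no scaling, the balance between the protease and its inhibitor was read directly. Untreated A549 cells had 2.23 SERPINE2 counts per PLAU count (1.91 to 2.60), and treated cells had 105 (81.6 to 137) at 1 ng/mL and 340 (222 to 550) at 5 ng/mL. BEAS-2B cells had 3.44 (3.03 to 3.91), 216 (135 to 371) and 198 (129 to 320). PLAU counts per SERPINE2 count thus fell 47.1-fold (34.9 to 64.2) and 153-fold (96.6 to 253) in A549 cells, and 62.7-fold (38.3 to 109) and 57.6-fold (36.8 to 94.7) in BEAS-2B cells. The balance moved further between doses in A549 cells, by 3.24-fold (1.94 to 5.61), whereas the step in BEAS-2B cells was within counting error.

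PLAUR and SERPINE2 had nearly equal counts in untreated A549 cells, with 1.00 SERPINE2 count per PLAUR count (0.890 to 1.13), and 1.31 (1.20 to 1.44) in untreated BEAS-2B cells. At 5 ng/mL, the ratio was 12.6 (11.5 to 13.7) and 12.3 (10.98 to 13.7), which did not differ between the lines beyond counting error. The fall of PLAUR per SERPINE2 was 12.5-fold (10.8 to 14.5) in A549 and 9.36-fold (8.09 to 10.8) in BEAS-2B cells. PLAT per SERPINE2 in A549 cells changed by a factor of 0.791 at 1 ng/mL (0.432 to 1.59) and of 0.492 at 5 ng/mL (0.264 to 1.00), and both intervals included no change, the latter only at its edge. Between 1 and 5 ng/mL it fell 1.61-fold (1.19 to 2.18) in A549 cells, beyond counting error. In BEAS-2B cells it fell 3.27-fold (2.27 to 4.72) at 1 ng/mL and 3.02-fold (2.13 to 4.28) at 5 ng/mL.

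Urokinase and its receptor did not keep their ratio either. Untreated cells had 451 PLAU counts per 1000 PLAUR counts in A549 and 381 in BEAS-2B cells, and treated cells had 44.6 and 37.0, and 31.3 and 61.9, at 1 and 5 ng/mL. The falls were 10.1-fold and 12.2-fold in A549 cells and 12.2-fold and 6.15-fold in BEAS-2B cells, all beyond counting error.

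**Figure D4:**
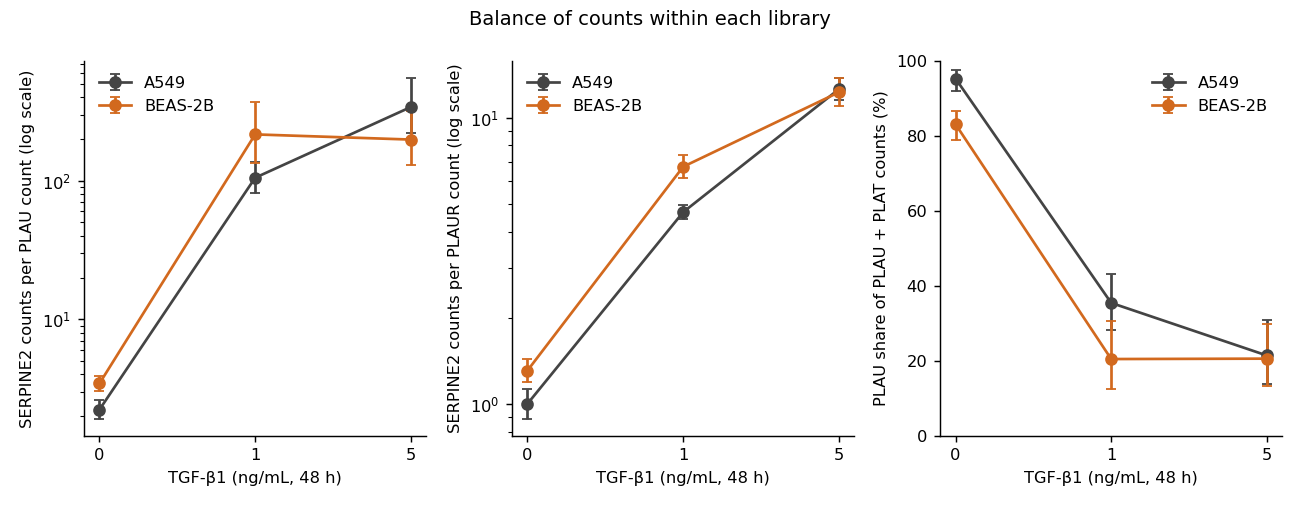
SERPINE2 counts per PLAU count (left, log axis), SERPINE2 counts per PLAUR count (middle, log axis) and the PLAU share of PLAU and PLAT counts in percent (right) against TGF-β1 dose, with exact 95% intervals. SERPINE2 per PLAU went from 2.23 to 340 (A549) and from 3.44 to 198 (BEAS-2B), and the PLAU share ended at 21.4% and 20.6%.

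In untreated cells, all 4 detected genes were lower in A549 than in BEAS-2B cells, and none met the criteria, against 37% of all entries in either direction. PLAT was 5.13-fold lower (2.75 to 10.5) but below the minimum, SERPINE2 was 1.91-fold lower (1.72 to 2.12), PLAUR 1.46-fold (1.31 to 1.63) and PLAU 1.24-fold (1.04 to 1.47). At 5 ng/mL, SERPINE2 in A549 cells was 1.24 times (1.19 to 1.29) and PLAUR 1.21 times (1.05 to 1.38) the BEAS-2B level, PLAT was 1.46-fold lower (1.06 to 2.02), and PLAU was 1.39-fold lower with an interval (0.721 to 2.67) that included no difference, from 21 counts in each line. Whether the gaps between the lines changed with dose was not tested apart from the fold ratios above. Again none of the 5 met the criteria, against 27% of all entries. None did between 1 and 5 ng/mL, against 3.4% in A549 and 0.904% in BEAS-2B cells.

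The genes whose pattern over the 6 libraries was closest to each of the measured genes were found by the root mean square difference of centered ND values, among 8158 other entries that reached the minimum. SERPINE2 was closest to SEC14L2, at 0.18 on the log2 scale, then FLRT2 at 0.27 and COL4A2 at 0.28. COL4A2, a basement membrane collagen chain, had 536, 5637 and 6319 counts in A549 cells and 1075, 5680 and 4868 in BEAS-2B cells, beside 548, 6405 and 7143 and 1087, 3669 and 4159 for SERPINE2. The closest to PLAUR were GEMIN4 at 0.13, BCAP29 at 0.14 and TAP1 at 0.15. PLAU had no equally close match, and its nearest were FLJ44635 at 0.42, C5orf15 at 0.42 and HNRNPF at 0.51. HNRNPF, a widely expressed RNA-binding protein, had 1078, 445 and 166 counts in A549 cells and 1239, 199 and 152 in BEAS-2B cells.

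RNA of plasminogen itself, the substrate of the activators, was low in these cells. PLG, which encodes plasminogen and is made mainly by the liver, had 27, 23 and 26 counts in A549 cells and 0, 4 and 1 in BEAS-2B cells. Of 15 genes for plasminogen, its receptors and its activation, 4 reached the minimum in A549 and 3 in BEAS-2B cells. None was higher or lower in A549 cells. ANXA2, which encodes annexin A2, came close there, at 1.94 times its control at 1 ng/mL and 1.96 times at 5 ng/mL. Its log2 fold of 0.97 at 5 ng/mL came to 1.001 at most under other scalings, which meets the criteria. In BEAS-2B cells its log2 fold was -0.21 and -0.57. Among all A549 entries that reached the minimum, the smaller dose had 10.9% higher and 12.6% lower. The larger dose had 16.1% and 17.1%. The share of lower entries for BEAS-2B was 9.13% with the smaller dose and 11.6% with the larger. With 4 and 3 list genes at the minimum, a departure from these shares was not tested. S100A10, the partner of annexin A2 at the cell surface and a plasminogen receptor, was the 1 gene that was lower in BEAS-2B cells, 2.83-fold at 1 ng/mL and 3.37-fold at 5 ng/mL. In A549 cells its log2 fold was 0.58 and 0.15. VTN, encoding vitronectin, a ligand of the urokinase receptor, had 80, 9 and 7 counts in A549 cells and 18, 0 and 2 in BEAS-2B cells, below the minimum throughout.

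Of 18 other serpins, inhibitors and related genes, 5 reached the minimum in A549 cells, where 0 were higher and 2 lower at each dose. In BEAS-2B cells 4 reached it, and 1 was higher and 1 lower at each dose. The list is broader than inhibitors of this system. SERPINH1 and PEBP1, which are not established inhibitors of these proteases, reached the minimum in both lines and met the criteria in neither. Over all entries, 12.6% and 17.1% were lower in A549 cells at 1 and 5 ng/mL, and in BEAS-2B cells 5.66% and 7.33% were higher and 9.13% and 11.6% lower. TFPI, the inhibitor of the tissue factor pathway, fell in both lines, by 5.43-fold in A549 and 4.81-fold in BEAS-2B cells at 5 ng/mL. SPINT2, a Kunitz-type inhibitor of the hepsin and matriptase class of serine proteases, fell 10.7-fold in A549 cells at 5 ng/mL. Its BEAS-2B counts of 87, 9 and 5 were below the minimum. TFPI2, a matrix-associated inhibitor of plasmin, rose 6.58-fold and 7.04-fold in BEAS-2B cells, from 42 to 274 and 262 counts. In A549 cells TFPI2 was 642, 1838 and 1619 counts, with a log2 fold of 0.98 at 5 ng/mL that came to 1.01 with upper quartile scaling.

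Among 18 clearance receptors and co-receptors of PLAUR, 13 reached the minimum in A549 cells at 1 ng/mL, where 4 were higher and 1 lower, and 12 at 5 ng/mL, where 5 were higher and 1 lower. In BEAS-2B cells 13 reached it at 1 ng/mL, with 4 higher and 1 lower, and 14 at 5 ng/mL, with 6 higher and 1 lower. Over all entries, 10.9% and 16.1% were higher in A549 cells and 5.66% and 7.33% in BEAS-2B cells. The lower shares were 12.6% and 17.1% in A549 cells and 9.13% and 11.6% in BEAS-2B cells. The median log2 fold of the list genes at the minimum was 0.43 and 0.25 in A549 cells and 0.43 and 0.37 in BEAS-2B cells at 1 and 5 ng/mL. Over all entries it was 0.09 and 0.11 in A549 cells and 0.01 and 0.03 in BEAS-2B cells. MRC2, the collagen receptor that associates with PLAUR, rose 2.64-fold and 2.53-fold in A549 cells and 2.52-fold and 2.57-fold in BEAS-2B cells. ITGA5, the alpha chain of the fibronectin receptor, rose 8.28-fold in A549 and 3.03-fold in BEAS-2B cells at 5 ng/mL. ITGAV, the alpha chain of vitronectin receptors, rose 3.09-fold and 4.03-fold. The lines parted on EGFR, which rose 3.43-fold in A549 cells with a log2 fold of -0.43 in BEAS-2B cells. CAV1, the caveolae coat protein, fell 6.18-fold in BEAS-2B cells at 5 ng/mL, with a log2 fold of -0.15 in A549 cells. IGF2R, a receptor that binds PLAUR and latent TGF-β, fell 3.86-fold in A549 cells.

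Few relatives by sequence family reached the minimum, and those that met the criteria lay on both sides. Over all entries, 10.9% and 16.1% were higher and 12.6% and 17.1% lower in A549 cells at 1 and 5 ng/mL. The BEAS-2B shares were 5.66% and 7.33% higher and 9.13% and 11.6% lower. With 2 or 3 genes of a list at the minimum, a departure from these shares was not tested. Of 12 other clade B serpins, 3 reached the minimum in A549 cells, where SERPINB1, an inhibitor of neutrophil proteases, fell 2.45-fold and 4.74-fold, and SERPINB6 rose 2.17-fold at 5 ng/mL. Of the 2 that reached it in BEAS-2B cells, SERPINB9, the inhibitor of granzyme B, fell 15.1-fold and 13.5-fold, from 137 to 9 and 9 counts. Of 14 other genes of the Ly6/uPAR family, 3 reached the minimum in each line. CD59, the GPI-anchored complement inhibitor, rose 3.62-fold and 4.06-fold in A549 cells. LY6K fell 2.94-fold and 3.11-fold in BEAS-2B cells, and LY6E was lower in both lines at 5 ng/mL, by 2.16-fold in A549 and 2.38-fold in BEAS-2B cells.

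**Figure D5:**
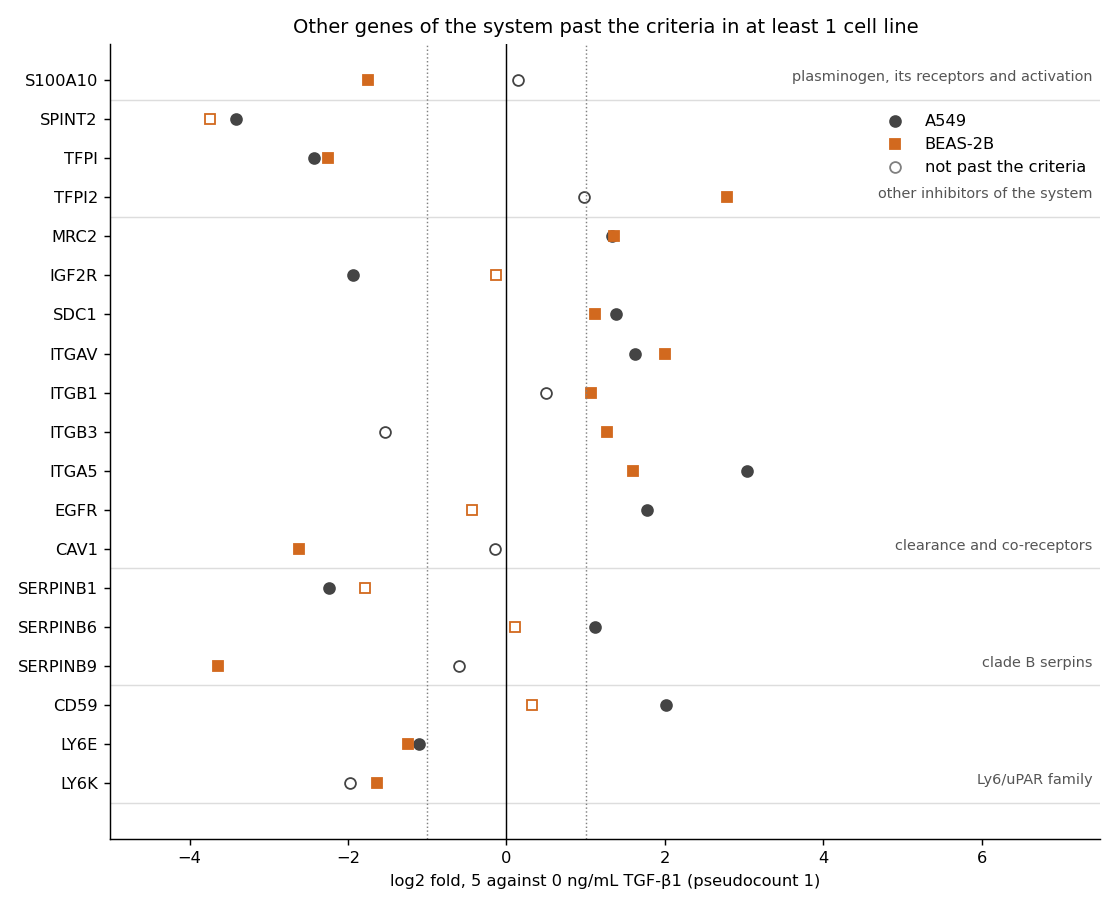
Log2 fold at 5 against 0 ng/mL (horizontal axis) of every other gene of 5 lists that met the criteria in at least 1 line, with circles for A549, squares for BEAS-2B and open symbols where the criteria were not met. TFPI, MRC2, SDC1, ITGAV, ITGA5 and LY6E met them on the same side in both lines. Every other gene drawn met them in 1 line only, S100A10, CAV1 and EGFR among them.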

How the data were processed

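The 6 conditions, each with 1 library, were taken from the labels. The kit (QuantSeq FWD) reads the 3′ end of each transcript, and the study names ExDEGA for the analysis. The values the authors deposited are whole-number read counts per gene symbol, not normalized. The submitters' processing notes name Bowtie2, bedtools and hg19. Tool versions, annotation, strand setting and filters are not given in the sources used here. Counts were scaled with TMM factors (edgeR 4.0.16, R 4.3.3) over all 6 libraries and all 25737 entries, with a pseudocount of 1 for log2 folds. The limits (FC of 2, ND of 7) have the numbers the study gives, but how the study computed ND is not given in the sources used here. Read from log2(CPM + 1), the same limit is stricter. The gene totals that the study reports for each cell line lie nearer to those under that reading than to those found here. PLAU met the criteria in no comparison under that reading. Intervals were exact Poisson, Clopper-Pearson or conditional odds ratio intervals (Python 3.11.15, scipy 1.17.1). Steps were tested on simulated data. Gene positions (GENCODE, GRCh38) describe genes, not counted intervals. The genes named were the 5 chosen genes, the 3 nearest patterns to each, and the genes of the pathway, marker and reference lists. The genes and lists were chosen with earlier results of these data known. Alternatives were other scalings (DESeq2 1.42.0 included), pseudocounts, minimums, FC limits and thinned libraries, and 2 were added after seeing the data.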

Additional observations from a re-analysis of the deposited data

Results flagged for a closer look

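With 1 library per condition, groups could not be searched for outlying samples. The results below had opposite directions in the 2 cell lines at the same dose, each beyond counting error. Apart from the counting interval given for PLAUR in the text, these differences were not tested, since no replicates exist.

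PLAUR had a log2 fold of 0.57 in A549 and -0.59 in BEAS-2B cells at 1 ng/mL, neither of which met the criteria. S100A10 had a log2 fold of 0.58 in A549 and -1.50 in BEAS-2B cells at the lower dose, and of 0.15 and -1.75 at 5 ng/mL. The 0.15 of S100A10 changed sign, to -0.06, when libraries were scaled by total counts. EGFR had a log2 fold of 1.41 in A549 and -0.34 in BEAS-2B cells at the lower dose, and of 1.78 and -0.43 at 5 ng/mL. CAV1 had a log2 fold of 0.50 in A549 and -2.47 in BEAS-2B cells at 1 ng/mL. ITGB3, an integrin beta chain that pairs with ITGAV, had a log2 fold of -1.54 in A549 cells, from 13 to 5 counts, and of 1.27 in BEAS-2B cells, from 50 to 108 counts, at 5 ng/mL.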

How the results depend on the processing

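Of 144 log2 folds of single genes recomputed under 9 other settings, 0 reversed beyond counting error and 8 left the counting interval of the main value. Those were SERPINE2 in all 4 comparisons and PLAUR in A549 cells under total counts, and SERPINE2 in A549 cells after removal of a GC trend. SERPINE2 ran from 1.64 to 3.62 over all settings and comparisons, and PLAU from -4.26 to -2.63. The count of genes that met the criteria was 2 in 3 comparisons and 3 in BEAS-2B cells at 5 ng/mL. It changed by over 1.5 times under 2 of 15 settings. With an ND minimum of 7 in both libraries, and with ND values taken as log2(CPM + 1), 1 gene (SERPINE2) met the criteria in A549 cells at either dose and in BEAS-2B cells at 1 ng/mL, because PLAU then lies under the minimum, and 2 (SERPINE2 and PLAUR) did in BEAS-2B cells at 5 ng/mL. Over all entries at 5 ng/mL, log2(CPM + 1) left 420 higher and 308 lower in A549 cells, from 1146 and 1220, and 158 and 199 in BEAS-2B cells, from 494 and 783. With a minimum of 6, PLAT was also higher in A549 cells at both doses. The 20 balance changes stayed within their intervals after thinning. Total counts shifted the median log2 fold of all entries by -0.13 to -0.20. The share of higher entries among all that met the criteria then fell to 32.2% and 33.8% in A549 and 27.3% and 26.9% in BEAS-2B cells, from 46.5%, 48.4%, 38.3% and 38.7%. Under another scaling SDC1 and ITGB1 in BEAS-2B and SERPINB6 in A549 cells dropped below an FC of 2. No paired analysis was possible because each condition had 1 library, which also left no replicate to omit.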
